A study of Mus musculus with 9 samples.

Results

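Matricellular proteins were followed through 10 genes, namely Ccn1, Ccn2, Ccn3, Ccn4, Ccn5, Ccn6, Postn, Sparc, Tnc and Spp1. They were chosen by name as the CCN family and matricellular glycoproteins, with earlier results of these data known. All 10 were found by Ensembl identifier among the 52780 genes of the deposited count table, and 9 passed the edgeR filter on low counts, which kept 19545 genes. C2C12 is an immortal mouse myoblast line that fuses into myotubes when serum is reduced, and mRNA was sequenced at day 4 of differentiation in horse serum. There were 3 samples of si Ctrl, 3 with an siRNA against the macroH2A1.1 splice isoform (si mH2A1.1) and 3 with an siRNA against macroH2A1.2 (si mH2A1.2), with siRNA at 10 nM. The sample labels give the controls as wild type, whereas the study's figures name them si Ctrl. The comparisons ask how each isoform knockdown differed from control and from the other. The study's legend describes biological replicates and the labels do not name separate cultures, so the p-values measure the spread between these samples.

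Levels are given as CPM, a gene's counts as a share of its library, scaled by TMM to a common library size, in the order of replicates 1, 2 and 3. The libraries held 36924252 to 42223108 counts, mitochondrial genes took 3.94% to 5.30% of them, and 3 counts corresponded to 0.0711 to 0.0812 CPM. The knockdown target H2afy, whose counts sum both isoforms, was at 56.3, 62.4 and 61.0 CPM with si Ctrl, 38.8, 30.0 and 30.9 CPM with si mH2A1.1, and 46.8, 47.2 and 43.2 CPM with si mH2A1.2. It was downregulated with si mH2A1.1 (log2 fold change -0.85, edgeR adjusted p = 0.00331) and did not pass with si mH2A1.2 (-0.39, edgeR adjusted p = 0.108), and the counts cannot show which isoform was lost. Myotube genes were present in every sample, with Acta1 at 2741 to 5000 CPM and Ckm at 183 to 493 CPM. In such bulk samples, fewer cells of a type and less RNA per cell cannot be told apart.

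Matricellular proteins are secreted into the extracellular matrix, where they bind collagen, growth factors and cell surface receptors without forming the main fibers. The CCN proteins are built from shared modules that bind insulin-like growth factors, integrins and heparan sulfate, and CCN5 lacks the C-terminal module of the others. CCN1 and CCN2, also known as CYR61 and CTGF, are textbook targets of the transcription coactivators YAP and TAZ with TEAD factors, and of serum and TGF-beta signaling. Periostin and SPARC bind collagen, tenascin-C shapes adhesion, and osteopontin, the product of Spp1, is an integrin ligand, and several of them are made in regenerating muscle.

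RefSeq promoter windows, from 250 bases before to 50 bases after an annotated start on GRCm38.p6, were matched for 6 of the 10 genes (Ccn1, Ccn6, Postn, Sparc, Tnc and Spp1, 9 windows). The 250 bases before the start are shown for Postn, the member with the widest differences, for Ccn1, the textbook YAP and TAZ target with a window, and for Sparc, the most abundant member. They lie at chr3:54360857-54361106 on the plus strand, chr3:145649986-145650235 on the minus strand and chr11:55420081-55420330 on the minus strand, and capitals mark the TEAD core GGAATG, the AP-1 motif TGANTCA, the TATA box TATAAA and the CArG box, each searched on both strands.
Postn: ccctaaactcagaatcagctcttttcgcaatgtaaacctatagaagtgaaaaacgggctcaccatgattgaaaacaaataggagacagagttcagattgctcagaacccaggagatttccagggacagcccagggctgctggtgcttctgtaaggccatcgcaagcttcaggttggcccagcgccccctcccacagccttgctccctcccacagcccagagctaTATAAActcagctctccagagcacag
Ccn1: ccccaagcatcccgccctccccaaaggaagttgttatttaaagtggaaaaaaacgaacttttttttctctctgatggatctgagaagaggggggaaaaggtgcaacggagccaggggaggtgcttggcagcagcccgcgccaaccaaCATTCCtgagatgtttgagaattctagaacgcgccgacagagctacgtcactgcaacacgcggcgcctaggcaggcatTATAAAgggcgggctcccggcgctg
Sparc: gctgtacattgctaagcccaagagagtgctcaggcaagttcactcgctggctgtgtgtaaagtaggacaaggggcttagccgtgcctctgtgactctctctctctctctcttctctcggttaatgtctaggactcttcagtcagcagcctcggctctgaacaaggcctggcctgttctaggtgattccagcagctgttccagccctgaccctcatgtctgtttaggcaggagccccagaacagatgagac
The Postn window shown held TATAAA at position -26 from the start. The Ccn1 window held TATAAA at position -25 and CATTCC, the reverse complement of GGAATG, at position -103. In the Sparc window none of these letters was found, and 3 E-boxes (CANNTG) were. They start at positions -60, -10 and -1, and the last runs past the bases shown. For comparison, GGAATG occurs in 14.7% of 32851 RefSeq promoter windows of this length, TGANTCA in 7.81%, TATAAA in 13.6%, the CArG box in 1.63% and CANNTG in 72.3%. These matches describe letters and not binding.

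In control myotubes the members ranged from an abundant transcript to one at the detection limit when levels were divided by exon length. Sparc was the highest at 836 to 956 CPM per kb of exon over the 3 si Ctrl samples, followed by Spp1 at 148 to 318 and Ccn1 at 88.1 to 122 CPM per kb. These 3 did not overlap with each other or with the genes below them. Tnc followed at 43.8 to 56.0 CPM per kb, and Postn at 23.6 to 53.0 CPM per kb. Ccn4 was at 33.0 to 36.2 and Ccn2 at 9.33 to 39.8 CPM per kb. The range of Postn overlapped with those of Tnc, Ccn4 and Ccn2, and that of Ccn4 with Ccn2, whereas Tnc lay above Ccn4 and Ccn2 in all control samples. Ccn5 at 4.06 to 6.42 and Ccn3 at 1.93 to 2.02 CPM per kb were lower in all control samples. Ccn6 was listed at 0.0363 to 0.0755 CPM per kb.

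**Figure D1:**
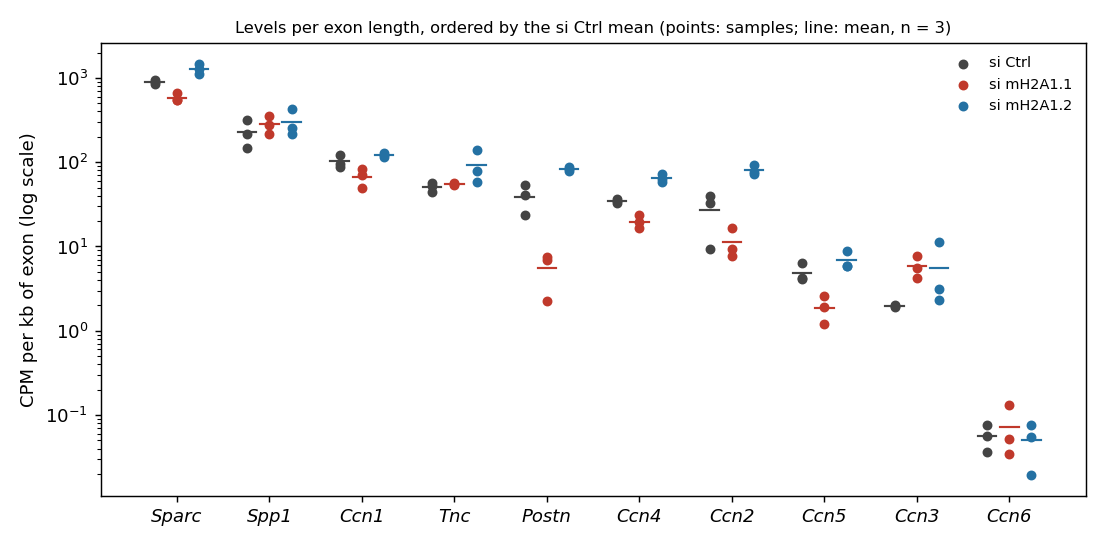
CPM per kb of exon on a log axis for the 10 genes, ordered by the si Ctrl mean, with 1 point per sample and a line at the mean of 3 samples for each of the 3 groups. Sparc lies highest with 836 to 956 CPM per kb in si Ctrl and Ccn6 lowest with 0.0363 to 0.0755.

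Postn encodes periostin, a collagen-binding protein of the fibrous matrix (ENSMUSG00000027750, chromosome 3 from 54361109 to 54391037, GRCm38). Its level was 206, 462 and 351 CPM with si Ctrl, 19.9, 65.6 and 60.4 CPM with si mH2A1.1, and 713, 759 and 676 CPM with si mH2A1.2. No sample of a group overlapped with another group, and control replicate 1 was the lowest of its group. Postn was downregulated 6.98-fold with si mH2A1.1 (log2 fold change -2.80, SE 0.41, edgeR adjusted p = 0.00472), and this call was kept without each of the 9 samples in turn. Against si Ctrl, si mH2A1.2 samples had a log2 fold change of 1.08 (95% interval 0.21 to 1.94), which did not pass (edgeR adjusted p = 0.205). Between the knockdowns, Postn was 14.7-fold lower with si mH2A1.1 than with si mH2A1.2 (edgeR adjusted p = 0.000464), with group means of 48.6 ± 25.0 and 716 ± 41.7 CPM (SD, n = 3).

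Sparc encodes a calcium- and collagen-binding glycoprotein (ENSMUSG00000018593, chromosome 11 from 55394500 to 55423183). Its level was 3168, 3621 and 3431 CPM with si Ctrl, 2044, 2480 and 2051 CPM with si mH2A1.1, and 5555, 4863 and 4265 CPM with si mH2A1.2. The groups did not overlap. It was downregulated with si mH2A1.1 by a smaller fold than Postn (log2 fold change -0.64, SE 0.15, edgeR adjusted p = 0.0258). This call was lost in edgeR without control replicate 2 (adjusted p = 0.0912), control replicate 3 (0.0635), si mH2A1.1 replicate 1 (0.0918) or si mH2A1.1 replicate 3 (0.0955). Against si Ctrl, si mH2A1.2 samples had a log2 fold change of 0.52 (95% interval 0.19 to 0.85), which did not pass in edgeR (adjusted p = 0.107) and passed in DESeq2 (adjusted p = 0.00451). Sparc was 2.23-fold lower with si mH2A1.1 than with si mH2A1.2 (edgeR adjusted p = 0.000866).

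Ccn4, also known as WISP1, encodes a CCN protein linked to Wnt signaling (ENSMUSG00000005124, chromosome 15 from 66891320 to 66923201). Its level was 193, 202 and 184 CPM with si Ctrl, 91.5, 131 and 107 CPM with si mH2A1.1, and 403, 351 and 328 CPM with si mH2A1.2. The 3 groups were separate, and the controls had a mean of 193 ± 9.01 CPM (SD, n = 3). Ccn4 was downregulated 1.75-fold with si mH2A1.1 (log2 fold change -0.81, SE 0.14, edgeR adjusted p = 0.0075). It was upregulated 1.87-fold with si mH2A1.2 (log2 fold change 0.90, SE 0.14, edgeR adjusted p = 0.0138), and between the knockdowns it was 3.28-fold lower with si mH2A1.1 (edgeR adjusted p = 0.000142). Ccn4 was thus called in each of the 3 comparisons, of which the first pair share the si Ctrl samples. The rise with si mH2A1.2 did not pass in edgeR without control replicate 1 (adjusted p = 0.0603), control replicate 3 (0.0629), si mH2A1.2 replicate 1 (0.0539) or si mH2A1.2 replicate 2 (0.0562). Its fall with si mH2A1.1 was kept without each of the 9 samples.

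Ccn5, also known as WISP2, encodes the member that lacks the C-terminal module (ENSMUSG00000027656, chromosome 2 from 163820861 to 163833146). It was a low transcript, at 7.82, 8.13 and 12.4 CPM with si Ctrl, 2.30, 4.92 and 3.64 CPM with si mH2A1.1, and 11.3, 11.4 and 16.8 CPM with si mH2A1.2. All si mH2A1.1 samples lay below the others, while si mH2A1.2 and si Ctrl overlapped through control replicate 3. Ccn5 was downregulated 2.61-fold with si mH2A1.1 (log2 fold change -1.38, SE 0.29, edgeR adjusted p = 0.018). Without control replicate 3, si mH2A1.1 replicate 1 or si mH2A1.1 replicate 3 the edgeR adjusted p was 0.0596, 0.057 and 0.0665. Against si Ctrl, si mH2A1.2 samples had a log2 fold change of 0.48 (95% interval -0.14 to 1.1) (edgeR adjusted p = 0.452). Ccn5 was 3.63-fold lower with si mH2A1.1 than with si mH2A1.2 (edgeR adjusted p = 0.00226).

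Ccn1 (ENSMUSG00000028195, chromosome 3 from 145646976 to 145649981) was at 178, 247 and 194 CPM with si Ctrl, 142, 99.1 and 166 CPM with si mH2A1.1, and 231, 244 and 263 CPM with si mH2A1.2. The si mH2A1.1 samples were all below the controls, and the si mH2A1.2 samples overlapped with control replicate 2. The log2 fold change with si mH2A1.1 was -0.61 with an interval of -1.01 to -0.20, which did not pass in edgeR (adjusted p = 0.0585) and passed in DESeq2 (adjusted p = 0.0177). For si mH2A1.2 it was 0.25 (95% interval -0.15 to 0.66, edgeR adjusted p = 0.559). Between the knockdowns Ccn1 was 1.81-fold lower with si mH2A1.1 (log2 fold change -0.86, SE 0.18, edgeR adjusted p = 0.00959).

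Ccn2 (ENSMUSG00000019997, chromosome 10 from 24595442 to 24598683) was uneven among the control samples, at 26.7, 93.9 and 114 CPM. With si mH2A1.1 it was at 26.4, 22.2 and 47.9 CPM, and with si mH2A1.2 at 207, 219 and 266 CPM. Control replicate 1 lay among the si mH2A1.1 samples, and all si mH2A1.2 samples were above all others. The log2 fold change with si mH2A1.1 was -1.28 with an interval of -2.27 to -0.29, which did not pass (edgeR adjusted p = 0.0879), and it was -1.69 without control replicate 1, which passed (edgeR adjusted p = 0.0141). Against si Ctrl, si mH2A1.2 samples had a log2 fold change of 1.56 (95% interval 0.57 to 2.55) and did not pass (edgeR adjusted p = 0.11). With the replicate number as a block, which pairs si mH2A1.2 with si Ctrl samples, it was 1.72 and passed (edgeR adjusted p = 0.031). Taken by number, the ratio of si mH2A1.2 to si Ctrl was 7.75, 2.33 and 2.34. Between the knockdowns Ccn2 was 7.17-fold lower with si mH2A1.1 (log2 fold change -2.84, SE 0.47, edgeR adjusted p = 0.00292). An annotated transcript on the opposite strand, Gm15270, overlaps Ccn2 and held 4 to 32 counts per sample.

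Ccn3, also known as NOV, encodes a CCN protein of quiescent and mesenchymal cells (ENSMUSG00000037362, chromosome 15 from 54745702 to 54754039). It was at 5.68, 5.81 and 5.54 CPM with si Ctrl, 22.1, 16.1 and 12.0 CPM with si mH2A1.1, and 32.2, 9.0 and 6.74 CPM with si mH2A1.2. The controls were nearly equal, all knockdown samples were above them, and si mH2A1.2 replicate 1 was far above its group. The log2 fold change with si mH2A1.1 was 1.56 with an interval of 0.45 to 2.67 and did not pass (edgeR adjusted p = 0.0686). It passed in edgeR when only the samples of these groups were fitted (adjusted p = 0.00835), and without si mH2A1.2 replicate 1 (0.00503) or si mH2A1.2 replicate 3 (0.0418), which take no part in this contrast but in its estimate of spread. Against si Ctrl, si mH2A1.2 samples had a log2 fold change of 1.49 (95% interval 0.38 to 2.6) (edgeR adjusted p = 0.168), and it was 0.47 without si mH2A1.2 replicate 1. Between the knockdowns it was 0.07 with an interval of -1.00 to 1.13 (edgeR adjusted p = 0.937), and 1.09 without si mH2A1.2 replicate 1 (edgeR adjusted p = 0.0153).

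Ccn6, also known as WISP3 (ENSMUSG00000062074, chromosome 10 from 39150970 to 39163794), had 4, 3 and 2 counts with si Ctrl, 2, 3 and 8 counts with si mH2A1.1, and 1, 3 and 4 counts with si mH2A1.2. It did not pass the filter, and no difference was detectable at this depth. The overlapping gene Tube1 on the opposite strand had 145 to 290 counts, and the sources used here do not state whether counting used strand.

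Tnc encodes tenascin-C, a large adhesion-modulating glycoprotein (ENSMUSG00000028364, chromosome 4 from 63959785 to 64047015). It was at 406, 435 and 341 CPM with si Ctrl, 430, 415 and 437 CPM with si mH2A1.1, and 1099, 605 and 451 CPM with si mH2A1.2. Control and si mH2A1.1 samples overlapped, and the si mH2A1.2 samples were above all others with a wide spread (718 ± 339 CPM, SD, n = 3). The log2 fold change with si mH2A1.1 was 0.12 with an interval of -0.47 to 0.70 (edgeR adjusted p = 0.802). For si mH2A1.2 it was 0.87 (95% interval 0.28 to 1.45), which did not pass in edgeR (adjusted p = 0.133), and passed in DESeq2 (0.0213) and in edgeR without si mH2A1.2 replicate 3 (0.0483). Without si mH2A1.2 replicate 1, the highest sample, it was 0.42 (edgeR adjusted p = 0.27), and over the samples left out in turn it ranged from 0.42 to 1.11 with adjusted p of up to 0.34 in edgeR. Between the knockdowns it was -0.75 (edgeR adjusted p = 0.0663). That difference passed without si mH2A1.2 replicate 3 (edgeR adjusted p = 0.0177) and in DESeq2 (adjusted p = 0.0244), and it was -0.31 without si mH2A1.2 replicate 1 (edgeR adjusted p = 0.185). The opposite-strand transcript 8030451A03Rik overlaps Tnc and held 64 to 146 counts.

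Spp1 encodes osteopontin, an integrin and CD44 ligand (ENSMUSG00000029304, chromosome 5 from 104435118 to 104441050). It was at 244, 354 and 525 CPM with si Ctrl, 460, 353 and 584 CPM with si mH2A1.1, and 356, 418 and 706 CPM with si mH2A1.2. All groups overlapped, and replicate 3 was the highest of each. The log2 fold change of Spp1 was 0.32 for si mH2A1.1 (interval -0.38 to 1.02, edgeR adjusted p = 0.54), 0.40 for si mH2A1.2 (interval -0.30 to 1.1, edgeR adjusted p = 0.602), and -0.08 between the knockdowns (interval -0.78 to 0.62, edgeR adjusted p = 0.881). Gm42793, annotated on the same strand inside this locus, held 45 to 131 counts.

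**Figure D2:**
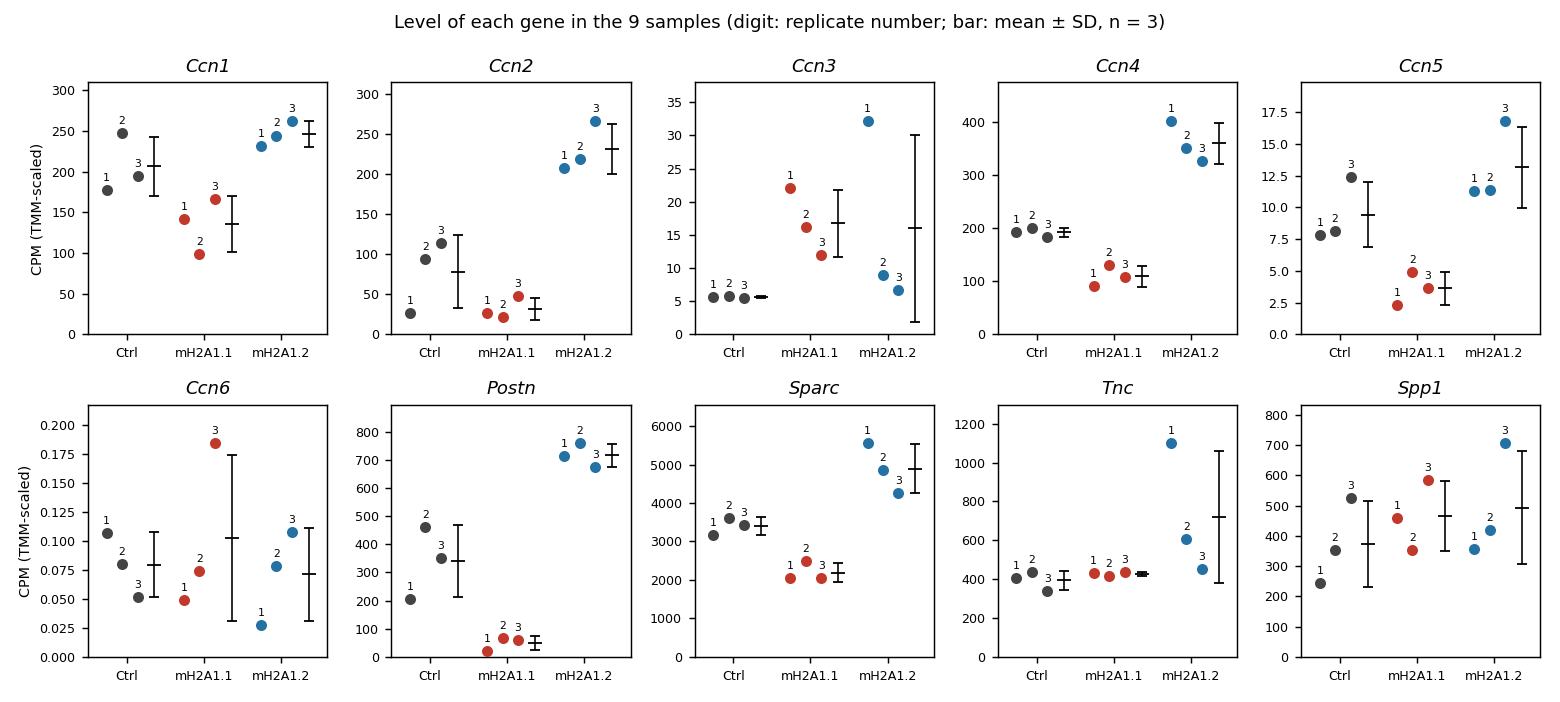
CPM of each of the 10 genes in the 9 samples, with 1 panel per gene, the replicate number above each point, and the mean with SD (n = 3) beside each group. For Postn, Sparc and Ccn4 the 3 groups do not overlap, Spp1 overlaps throughout, and 1 sample of si mH2A1.2 is far above the others for Ccn3 and Tnc.

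Counted over the list, 4 of the 9 tested members were downregulated with si mH2A1.1 (Ccn4, Ccn5, Postn and Sparc) and 0 were upregulated, where 4.93% of all tested genes were called lower and 6.18% higher. With si mH2A1.2, 1 member was upregulated (Ccn4) and 0 were downregulated, where 1.37% of all tested genes were called higher and 0.982% lower. In the direct comparison, 6 members were lower with si mH2A1.1 than with si mH2A1.2 (Ccn1, Ccn2, Ccn4, Ccn5, Postn and Sparc) and 0 were higher, where 10.5% of all tested genes were called lower and 12.0% higher. The replicate block raised the calls with si mH2A1.2 to 2 members (Ccn2 and Ccn4) and from 460 to 1005 genes of all tested. With si mH2A1.1, where samples of the same number correlated less with the controls, it raised the calls to 7 members (6 lower and 1 higher). Ccn1, Ccn2 and Ccn3 were the members added, and the calls over all tested genes rose from 2171 to 4065. At the stricter cutoff of an adjusted p below 0.01 and a log2 change of 0.8 or more in size, 2 members were lower with si mH2A1.1 (Ccn4 and Postn, where 0.491% of all tested genes were lower and 1.31% higher). At that cutoff 0 members passed in the main edgeR fit with si mH2A1.2 (0.128% of genes higher, 0.0512% lower), and the same 6 were lower between the knockdowns (2.84% lower, 3.54% higher). That 0 depends on the fit. In the alternative fits of all samples, Ccn4 with si mH2A1.2 had log2 fold changes of 0.90 to 0.91, and its lowest adjusted p was below 0.01.

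At an unadjusted p under 0.05 in edgeR, 6 members were lower and 1 higher with si mH2A1.1, against 14.2% and 15.4% of all tested genes. With si mH2A1.2, 6 were higher and 0 lower, against 8.18% and 7.73%. Between the knockdowns 7 were lower and 0 higher, against 17.4% and 18.8%. By their samples alone, 5 members lay wholly below and 1 wholly above the controls with si mH2A1.1, where 16.7% and 17.5% of all tested genes did. With si mH2A1.2, 6 lay wholly above and 0 wholly below, where 11.7% and 10.8% did, and between the knockdowns 7 lay wholly below and 0 wholly above, where 19.4% and 20.3% did. The median log2 fold change of the members was -0.64, 0.87 and -1.16 in the 3 comparisons, while that of all tested genes was -0.01, 0.00 and -0.01. An exact 2-sided permutation test of 3 and 3 samples has 0.1 as its smallest p, and none was run.

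**Figure D3:**
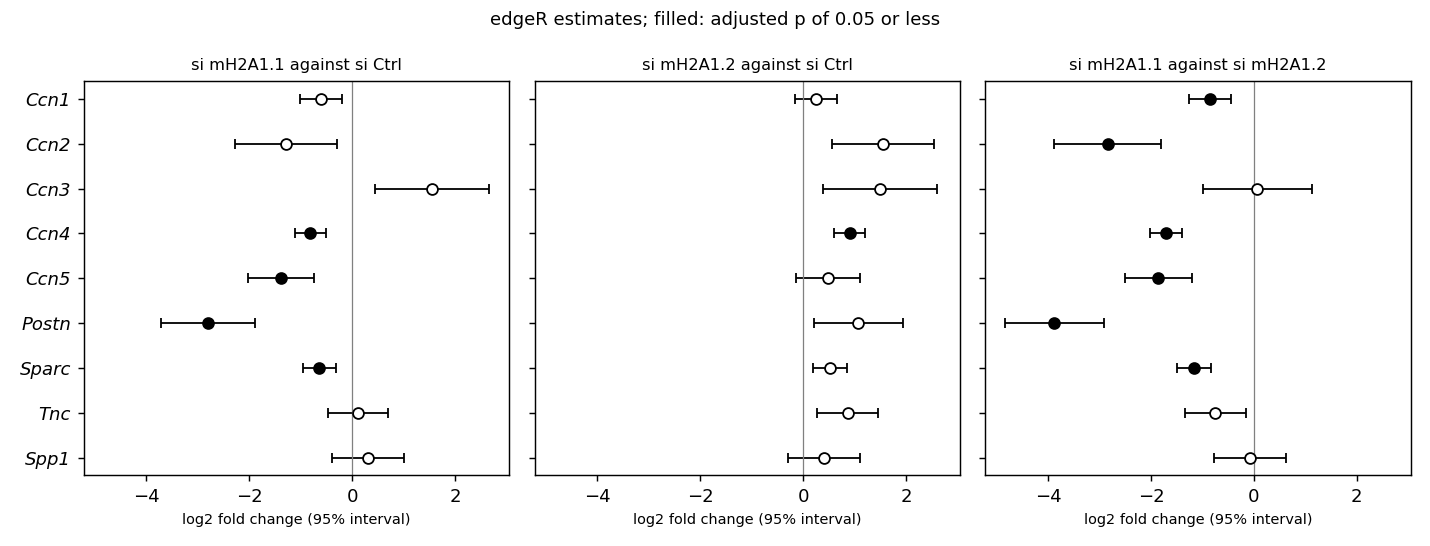
Log2 fold changes of the 9 tested genes with 95% intervals in the 3 comparisons, from edgeR on all 9 samples, where filled points passed an adjusted p of 0.05. Filled points number 4, 1 and 6 in the panels from left to right, and Postn has the lowest value with -2.80 in the first and -3.88 in the last.

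Across the 9 samples, the log2 CPM of Ccn4 and Sparc ran closest among the members (Pearson r = 0.986, pseudocount 0.5 CPM), and Postn had r = 0.946 with Sparc, 0.949 with Ccn5 and 0.941 with Ccn4. Ccn3 had r = 0.645 with Tnc and -0.37 with Postn, and Spp1 had r = -0.01 with Postn. These values describe samples that differ by group and are no test. Among 14381 tested genes of at least 1 CPM, the pattern nearest to Postn was that of Zfp236 (r = 0.996), followed by Slc7a2 and the growth factor gene Bmp4 (both 0.993). Nearest to Ccn2 were Hbegf, which encodes a ligand of the EGF receptor (0.989), the basement membrane gene Nid2 (0.985) and Prkg2 (0.983). Ccn4 was nearest to the matrix proteoglycan gene Vcan (0.991), Lrig3 (0.99) and Mfsd14b (0.989), and Ccn5 to the collagen lysyl hydroxylase gene Plod2 (0.986), Sike1 (0.986) and Edem3 (0.984). Sparc was nearest to Pdzd8 (0.989) and the collagen genes Col1a2 (0.989) and Col6a2 (0.988). The nearest genes were Ankhd1 for Ccn1 (0.956), Tmem268 for Ccn3 (0.958), Nat8f1 for Tnc (0.954) and Keap1 for Spp1 (0.979).

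Related genes were described in 13 lists with 189 tested genes. For si mH2A1.1, 52 of them were called, beside 2171 of all 19545 tested genes. For si mH2A1.2, 23 were called, beside 460 of all tested genes, or 45 beside 1005 under the replicate block. Of 27 other matricellular genes, 18 were tested, with median log2 fold changes of -0.20, 0.55 and -0.73 in the 3 comparisons. With si mH2A1.1, 5 were downregulated and 1 upregulated, with si mH2A1.2, 3 were upregulated and 0 downregulated, and between the knockdowns 8 were lower and 4 higher with si mH2A1.1. The elastic fiber gene Fbln5 fell by 2.01 on the log2 scale with si mH2A1.1 (edgeR adjusted p = 0.0138), from 16.5 ± 1.49 to 4.08 ± 2.92 CPM (SD, n = 3). Bgn, which encodes the proteoglycan biglycan, fell by 1.81 (edgeR adjusted p = 0.00947). Thbs1, which encodes thrombospondin-1, an activator of latent TGF-beta, was at 945 ± 99.5 CPM in controls, 448 ± 114 CPM after si mH2A1.1 and 1805 ± 177 CPM after si mH2A1.2 treatment. It fell by 1.08 in the former (edgeR adjusted p = 0.00876) and rose by 0.93 in the latter (edgeR adjusted p = 0.0347). Smoc2, a relative of Sparc, was called likewise, at -1.71 and 1.14 (edgeR adjusted p = 0.00331 and 0.0266). Fstl1, another SPARC-related gene, fell by 0.96 with si mH2A1.1 and rose by 1.28 with si mH2A1.2 (edgeR adjusted p = 0.0342 and 0.0297). The falls of Bgn, Smoc2 and Thbs1 were kept without each sample, and that of Fbln5 was lost without control replicate 2 or si mH2A1.1 replicate 3. The rises of Thbs1, Smoc2 and Fstl1 were kept in 2, 4 and 4 of the 9 fits that each left out 1 sample. All 3 rises were lost without control replicate 1 or 3 or si mH2A1.2 replicate 1 or 2, among others.

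Among 22 tested receptor genes, with medians of -0.13, 0.06 and -0.15, 2 were downregulated and 1 upregulated with si mH2A1.1, and 4 were upregulated and 1 downregulated with si mH2A1.2. Between the knockdowns, 7 were lower and 4 higher with si mH2A1.1. The partners of the integrin that binds periostin, osteopontin and CCN proteins, Itgav and Itgb5, rose with si mH2A1.2 by 0.68 and 0.72 on the log2 scale (edgeR adjusted p = 0.0408 and 0.028). Itgb5 fell by 0.57 with si mH2A1.1 (edgeR adjusted p = 0.0268), from 121 ± 20.7 to 81.6 ± 6.19 CPM. The growth factor receptor gene Egfr rose by 0.97 and the laminin receptor gene Itga6 fell by 0.62 with si mH2A1.2 (edgeR adjusted p = 0.0297 and 0.0363). Itgb2, a leukocyte integrin subunit, rose by 1.57 with si mH2A1.1 from 0.831 ± 0.302 to 2.46 ± 0.309 CPM (edgeR adjusted p = 0.0137, lost without si mH2A1.1 replicate 3). Itga8, an integrin subunit for RGD ligands, fell by 1.67 with si mH2A1.1 from a low level of 2.22 ± 0.984 CPM (edgeR adjusted p = 0.0124). The calls of Itgav, Itgb5, Egfr and Itga6 with si mH2A1.2 were kept in 2, 4, 3 and 2 of the 9 fits that each left out 1 sample. All were lost without control replicate 1 or 3 or si mH2A1.2 replicate 1 or 2, among others. Those of Itgb5 and Itga8 with si mH2A1.1 were kept in 5 and 7 fits, and both were lost without replicate 1 or 3 of that group.

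The list of YAP/TAZ-TEAD targets other than Ccn1 and Ccn2 had 22 tested genes, with median log2 fold changes of -0.20, 0.38 and -0.55. With si mH2A1.1, 3 fell (F3, Amotl2 and Gadd45a) and 2 rose (Tgfb2 and Myof), with si mH2A1.2, 0 passed, and between the knockdowns 10 were lower and 1 higher with si mH2A1.1. F3, the gene of tissue factor, fell by 2.00 on the log2 scale (edgeR adjusted p = 0.0145), and Amotl2, a feedback regulator of YAP, fell by 0.96 (edgeR adjusted p = 0.0093). Tgfb2 rose by 0.63 (edgeR adjusted p = 0.0349). The fall of Amotl2 was kept without each sample. The calls of F3, Gadd45a and Tgfb2 were kept in 7, 4 and 3 of the 9 fits that each left out 1 sample. All 3 were lost without control replicate 2 or si mH2A1.1 replicate 1. Of 18 genes of the Hippo pathway and TEAD cofactors, Tead3 and Vgll3 fell with si mH2A1.1, by 0.39 and 0.40 (edgeR adjusted p = 0.0292 and 0.0186), and 0 passed with si mH2A1.2. The fall of Tead3 was lost without control replicate 2 or 3 or si mH2A1.1 replicate 1 or 3. That of Vgll3 was lost without control replicate 1 or 3 or si mH2A1.1 replicate 3. Of the 16 genes of SRF and its cofactors MRTF, another route to Ccn1 and Ccn2, Tagln fell and Myl9 rose with si mH2A1.1, whereas in si mH2A1.2 samples the actin-binding genes Cnn1 and Tagln and the immediate early gene Egr2 rose, by 2.22, 1.54 and 1.19 (edgeR adjusted p = 0.0247, 0.046 and 0.0296). Each of these rises was lost without any 1 of the control samples, among others. Cnn1, Tagln and Egr2 kept theirs in 4, 2 and 3 of the 9 fits that each left out 1 sample.

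Of 16 TGF-beta ligands and immediate targets, 3 fell and 2 rose with si mH2A1.1, 3 rose and 1 fell with si mH2A1.2, and 12 were lower and 2 higher with si mH2A1.1 than with si mH2A1.2. The median log2 fold changes of this list were -0.46, 0.51 and -0.70. Ltbp2, which encodes a matrix-binding protein related to the carriers of latent TGF-beta, rose by 1.99 with si mH2A1.2 (edgeR adjusted p = 0.00426), from 19.4 ± 3.18 to 77.4 ± 5.97 CPM. The receptor gene Tgfbr2 rose by 0.78 (edgeR adjusted p = 0.0253). Skil, a feedback inhibitor of SMAD signaling, fell by 0.58 with si mH2A1.1 and rose by 0.68 with si mH2A1.2 (edgeR adjusted p = 0.0378 and 0.0496). Ltbp1 and Tgfb3 fell by 0.57 and 0.50 with si mH2A1.1 (edgeR adjusted p = 0.0378 and 0.0339). The rise of Ltbp2 was kept without each sample. Tgfbr2 and Skil with si mH2A1.2 kept theirs in 5 and 1 of the 9 fits that each left out 1 sample. Both were lost without control replicate 1 or 3, among others. Skil, Ltbp1 and Tgfb3 with si mH2A1.1 were kept in 3, 3 and 4 of these 9 fits. All 3 were lost without control replicate 2 or 3, among others.

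**Figure D4:**
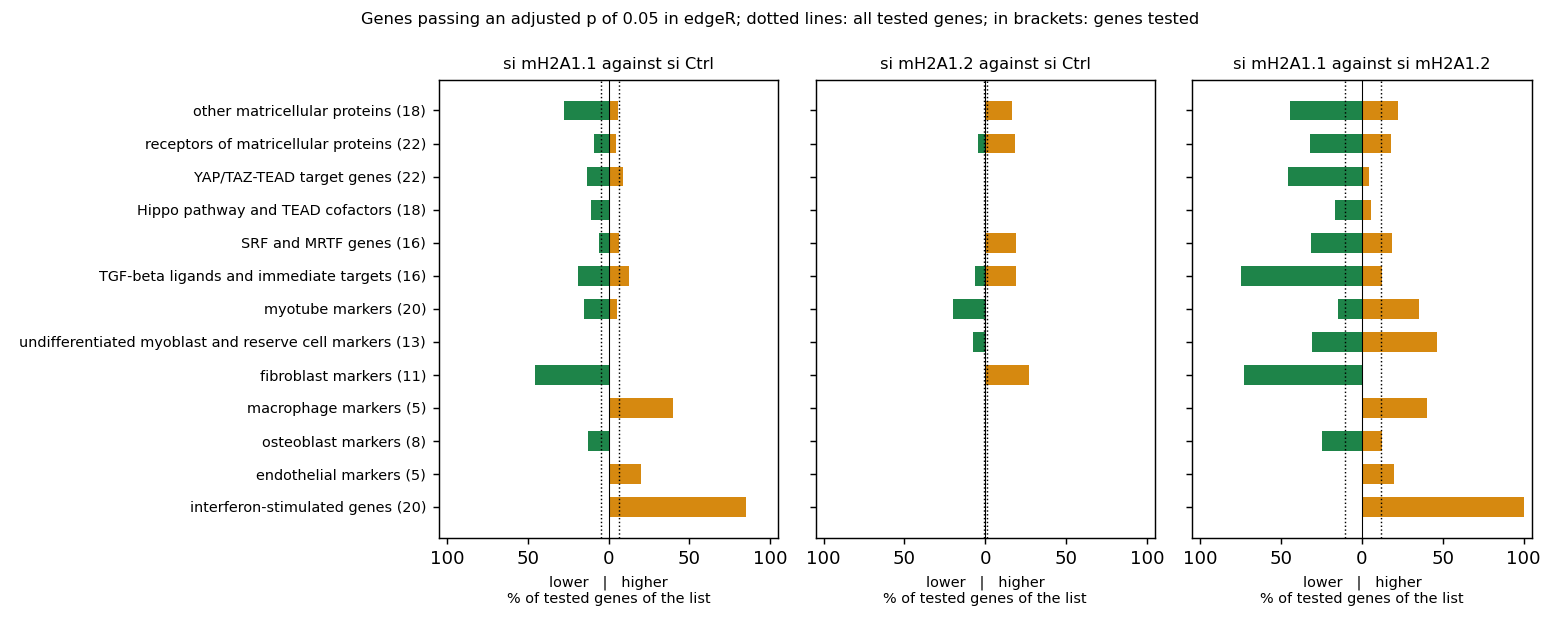
Percent of the tested genes of each of 13 gene lists that passed an edgeR adjusted p of 0.05, lower to the left and higher to the right, in the 3 comparisons, with the number tested in brackets and dotted lines at the percent of all tested genes. Fibroblast markers have 5 of 11 genes lower in the first comparison and 3 higher in the second, and interferon-stimulated genes have 17 of 20 higher in the first and 0 in the second.

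Some markers of other cell types and states moved beside the members, and their part in these results was not tested. Fibroblast markers had 11 of 12 genes tested, with 5 lower with si mH2A1.1, 3 higher with si mH2A1.2, and 8 lower between the knockdowns. Their summed level was 12615 to 15568 CPM in controls, 4972 to 8427 CPM after si mH2A1.1 and 20072 to 28473 CPM after si mH2A1.2. Much of this sum was collagen, with Col3a1 at 8596 ± 840 and Col1a1 at 2945 ± 726 CPM (SD, n = 3) in controls. Lum, which encodes the proteoglycan lumican, had the lowest log2 fold change of the list with si mH2A1.1, at -2.74 (edgeR adjusted p = 0.00608), and was at 16.0 ± 3.21, 2.41 ± 1.82 and 11.2 ± 1.03 CPM in the 3 groups, with -0.52 for si mH2A1.2 (edgeR adjusted p = 0.584). Col1a1 fell by 2.38 with si mH2A1.1 (edgeR adjusted p = 0.00558), and its 1.41 for si mH2A1.2 did not pass (edgeR adjusted p = 0.0762).

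Col3a1 fell by 1.06 with si mH2A1.1 (edgeR adjusted p = 0.0142) and had 0.39 for si mH2A1.2 (edgeR adjusted p = 0.413). The receptor gene Pdgfrb fell by 1.31 with si mH2A1.1 and rose by 1.34 with si mH2A1.2 (edgeR adjusted p = 0.0131 and 0.028). The matrix genes Dpt and Mfap5 rose by 1.74 and 1.73 with si mH2A1.2 (edgeR adjusted p = 0.0365 and 0.0239), and neither passed with si mH2A1.1. The falls of Lum and Col1a1 were kept without each sample. Those of Col3a1 and Pdgfrb were lost without control replicate 2 or si mH2A1.1 replicate 1, and kept in 6 and 7 of the 9 fits that each left out 1 sample. The rises of Dpt, Mfap5 and Pdgfrb were kept in 4, 4 and 5 of these fits. All 3 rises were lost without si mH2A1.2 replicate 1 or 2, among others. The fibroblast transcription factor gene Tcf21 had at most 3 counts in any sample. Pdgfra was at 9.21 to 16.3 CPM in controls, 12.1 to 15.8 CPM after si mH2A1.1 and 16.2 to 19.7 CPM after si mH2A1.2. Dcn was at 278 to 372, 221 to 469 and 504 to 528 CPM in these groups. Neither Pdgfra nor Dcn was called in any comparison.

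The 20 myotube markers summed to 24734 to 36724 CPM in controls, 24516 to 28920 CPM after si mH2A1.1 and 20225 to 26210 CPM after si mH2A1.2. With si mH2A1.1, 3 fell and 1 rose, and with si mH2A1.2, 4 fell. Between the knockdowns, 7 were higher and 3 lower with si mH2A1.1, where 12.0% and 10.5% of all tested genes were. Myog, which encodes the differentiation factor myogenin, fell by 0.66 on the log2 scale with si mH2A1.1 (edgeR adjusted p = 0.0204), and the fusion gene Mymx by 0.82 (edgeR adjusted p = 0.0221). The sarcomere gene Actn2 fell by 0.74 and 1.25 with si mH2A1.1 and si mH2A1.2 (edgeR adjusted p = 0.0125 and 0.00631), and Myh1, a fast myosin heavy chain gene, rose by 1.26 and fell by 1.76 (edgeR adjusted p = 0.0378 and 0.0296). The fast troponin gene Tnnt3 and the desmin gene Des fell by 0.96 and 0.62 with si mH2A1.2 (edgeR adjusted p = 0.028 and 0.0466). Both falls were lost without control replicate 1 or 3 or si mH2A1.2 replicate 1 or 2. Tnnt3 was kept in 5 and Des in only 1 of the 9 fits that each left out 1 sample. Of 13 markers of undifferentiated myoblasts and reserve cells, 0 passed with si mH2A1.1, and Myf5, an early myogenic factor, fell by 0.84 with si mH2A1.2 (edgeR adjusted p = 0.0422). Between the knockdowns, 6 of these 13 were higher and 4 lower with si mH2A1.1. Leaving out any 1 of the 9 samples ended the call of Myf5, and the fall of Actn2 with si mH2A1.2 was kept without each. The fall of Actn2 with si mH2A1.1 was lost only without si mH2A1.1 replicate 3. Those of Myog and Mymx were each lost without control replicate 2 or 3 or si mH2A1.1 replicate 1 or 3. The rise of Myh1 with si mH2A1.1 was lost without any control or si mH2A1.1 sample. Its fall with si mH2A1.2 was lost without control replicate 1 or 3, si mH2A1.1 replicate 3 or any si mH2A1.2 sample.

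Markers of macrophages, a known source of Spp1, were low. C1qa, C1qb and Tyrobp were at 0 in all 9 samples, Adgre1 had at most 1 count and Ptprc 1 to 9 counts, and the 12 genes summed to 7.60 to 10.4 CPM in controls, 12.6 to 19.0 CPM after si mH2A1.1 and 9.36 to 10.4 CPM after si mH2A1.2. Of the 5 tested, 2 rose with si mH2A1.1, including the lysosomal gene Cd68 by 1.62 (edgeR adjusted p = 0.00565), and 0 passed with si mH2A1.2. Osteoblast markers had 1 of 8 tested genes lower with si mH2A1.1, Runx2 by 0.88 (edgeR adjusted p = 0.0396), and 0 with si mH2A1.2, and Sp7 had 1 to 17 counts. The call of Runx2 was lost without control replicate 2 or 3, any si mH2A1.1 sample or si mH2A1.2 replicate 3. Of 5 tested endothelial markers, 1 rose with si mH2A1.1 and 0 passed with si mH2A1.2. Interferon-stimulated genes, which respond to innate immune signaling, summed to 137 to 164 CPM in controls, 359 to 1108 CPM after si mH2A1.1 and 124 to 164 CPM after si mH2A1.2. Among these, 17 of 20 rose with si mH2A1.1, such as Oas2 from 0.185 ± 0.0555 to 99.8 ± 79.1 CPM, and 0 passed with si mH2A1.2. Usp18, Oas3 and Ifi44 rose by 5.63, 4.72 and 4.14 with si mH2A1.1 (edgeR adjusted p = 0.00368, 0.00468 and 0.0084). Their controls were low, at 0.318 ± 0.142, 0.572 ± 0.109 and 0.519 ± 0.0814 CPM. The si mH2A1.1 samples were uneven, at 15.8 ± 11.8, 15.1 ± 15.2 and 9.18 ± 9.44 CPM (SD, n = 3).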

How the data were processed

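mRNA of 9 samples was sequenced as single reads of 50 bp. The authors quantified reads with Salmon on mm10 (GRCm38), and the deposited expected counts are Salmon's estimates per gene as whole numbers without normalization. A second deposited table holds a normalized signal, these counts divided by 1 size factor per sample (0.950 to 1.13), and was used only to check the counts. The labels gave each sample's group and number. Names, positions and exon lengths came from GENCODE M21, which names 52762 of the 52780 genes.

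edgeR 4.0.16 (R 4.3.3) was run on the expected counts, using its older quasi-likelihood form, TMM scaling, filterByExpr and 1 model of the 9 samples without a replicate term. p-values were adjusted by Benjamini-Hochberg over 19545 genes, and an adjusted p of at most 0.05 was called. Intervals are at 95% and cover the spread between samples, while values at few counts carry counting error. Alternatives were DESeq2 1.42.0, limma-voom (limma 3.58.1), DESeq2 size factors, edgeR's newer form, no filter, at least 10 counts in every sample, only the samples of the compared groups, the replicate block, a stricter cutoff (adjusted p below 0.01 with a log2 change of 0.8 or more in size), and leaving out each sample. Motifs were counted in RefSeq promoter windows.

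The replicate numbers were checked as pairs. Across genes, residuals of log2(CPM + 0.05) about the mean of each group correlated between si mH2A1.2 and si Ctrl samples of the same number with r of 0.195 to 0.33, and at most 0.0357 between other numbers. These samples were taken as paired, though the main calls come from the model without a replicate term. For si mH2A1.1 and si Ctrl, r was 0.0838 to 0.0972, and for the knockdowns 0.0916 to 0.115, so not every pair passed 0.1. With a pseudocount of 0.5 the lowest values were 0.342, 0.113 and 0.101, so every pair passed 0.1 at that setting. The column headers of the counts also run consecutively within each replicate number, and what they stand for is not stated. Pairing of si mH2A1.1 samples with the controls thus remains possible.

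The 10 genes, the 13 lists of related genes and the tests were chosen with earlier results of these data known. Within a list, at most 4 genes were named per knockdown, those with the largest absolute log2 fold change among called genes of at least 1 CPM on average whose samples did not overlap with the controls. Myof, and Tagln and Fstl1 with si mH2A1.1, are named outside this rule to complete counts. Some genes are in 2 lists. Other experiments of the study were not analysed here.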

Additional observations from a re-analysis of the deposited data

How the results depend on the processing

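The 6 member calls between the knockdowns were kept in all 18 alternatives run, as were Ccn4 and Postn with si mH2A1.1. Of the values of single members and H2afy under the alternatives, 495 stayed on their side of the threshold, 23 newly passed, 17 no longer passed and 5 changed sign. Those that changed sign were far from the threshold, namely Ccn3 between the knockdowns without si mH2A1.1 replicate 1 (-0.18), si mH2A1.2 replicate 2 (-0.22) and si mH2A1.2 replicate 3 (-0.30), and Spp1 without si mH2A1.1 replicate 2 (0.08) and si mH2A1.2 replicate 3 (0.26), within leave-one-out ranges of -0.30 to 1.09 and -0.28 to 0.26. H2afy between the knockdowns no longer passed without si mH2A1.1 replicate 3 or si mH2A1.2 replicate 2.

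Leaving out 1 sample gave 2 to 5 member calls with si mH2A1.1, 0 to 2 with si mH2A1.2 and 6 to 7 between the knockdowns. Over all genes these calls ranged from 605 (without control replicate 2) to 2928, 74 (without control replicate 1) to 544 and 2251 (without si mH2A1.2 replicate 2) to 4616, and over the lists from 26 to 63 (52 with all samples), 2 to 29 (23) and 81 to 115 (113). Of the named list genes, 11 of 31 with si mH2A1.1 and 2 of 21 with si mH2A1.2 (Actn2 and Ltbp2) were kept without each sample, and the highest edgeR adjusted p was 0.145 and 0.16. None changed direction.

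With the replicate block, 4065 genes were called with si mH2A1.1 (2171 without it), with 7 members, since Ccn1, Ccn2 and Ccn3 passed (edgeR adjusted p = 0.0497, 0.046 and 0.0251), and 81 list genes. The block gave 1005 genes, 2 members and 45 list genes with si mH2A1.2, and changed no other member call. Every sample correlated best with its own number. DESeq2 called 3354 genes with si mH2A1.1, and 1096 genes, 3 members and 45 list genes with si mH2A1.2. Without a filter there were 7 members with si mH2A1.1, and 3 members and 42 list genes with si mH2A1.2. At the stricter cutoff (0.01 and 0.8) the calls in the main edgeR fit were 352, 35 and 1247 genes, 2, 0 and 6 members, and 23, 2 and 65 list genes in the 3 comparisons. The causes of these shifts were not tested. At this depth Ccn6 could not be compared.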
